A study of Rattus norvegicus with 4 samples.

Results

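Natural killer (NK) and innate lymphoid cells were sought among the cells of rat skin wounds at day 4, as the barcodes with at least 3 UMIs (unique molecular identifiers, each one counted transcript) summed over Nkg7, Il2rb and Cd7. A barcode was kept if it held at least 1000 UMIs and 250 genes with at most 20% mitochondrial UMIs. A member could hold no UMI of Cd3e, Cd3d or Cd3g, fewer than 3 UMIs of C1qa, C1qb and C1qc, and less than set shares of keratinocyte (Krt5 and Krt14, 0.5%), fibroblast (Col1a1, Col3a1 and Dcn, 1%) and neutrophil (G0s2, Il1r2, S100a8 and S100a9, 0.5%) transcripts. Of 32801 kept barcodes, 800 met this rule. The uninjected libraries gave 75 and 322 of them, the injected ones 289 and 114. Measured counts chose these barcodes, so their levels of the gate genes, and their differences from other cells of the wound, are described here without a test.

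The study set wounds of a rat healing model that received purified migrasomes, vesicles left behind on the retraction fibres of migrating cells, against wounds that received nothing. Each group had 2 skin libraries, called uninjected 1 and 2 and injected 1 and 2 below, so an injection as such and its content cannot be told apart. The labels do not name the rat strain, age or sex, and do not say that the 2 libraries of a group came from separate animals. The p-values therefore measure the spread between libraries, which may be technical.

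NK cells are innate lymphocytes that kill stressed or infected cells with perforin and granzymes and are steered by activating and inhibitory lectin-like receptors. Innate lymphoid cells lack antigen receptors and are grouped by the cytokines they share with helper T cells: interferon gamma in group 1, interleukins 5 and 13 in group 2, and interleukins 17 and 22 in group 3. Both kinds live in skin in small numbers and enter wounds with other leukocytes.

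The 4 libraries held between 75823418 and 105605297 UMIs. Median depth of the members was 3483 UMIs in uninjected 1 and 6349, 6317 and 6382.5 UMIs in uninjected 2, injected 1 and injected 2. Uninjected 1 stood apart: ribosomal protein genes took 16.3% of its members' UMIs, against 7.29% to 7.85% elsewhere, and it held the fewest members. Of the kept barcodes, 218 carried a barcode sequence that was kept in another library too, among them 4 members, and no barcode was a member in 2 libraries. Free RNA, estimated at most from keratinocyte, fibroblast and neutrophil genes that the rule did not use, made up 14.9%, 7.03%, 7.57% and 18.3% of the members' UMIs, with uninjected 1 and injected 2 the highest.

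The members fell into 2 sets by the gate genes they held. Nkg7, a granule protein of cytotoxic lymphocytes, was present in 442 members, 344 of which also held Il2rb, the shared beta chain of the interleukin 2 and 15 receptors. Cd7, a surface protein of T and NK cells and of some lymphoid precursors, was present without Nkg7 in 350 members, of which 319 held neither Nkg7 nor Il2rb. Only 55 members held both Nkg7 and Cd7, and 8 members passed on Il2rb alone. Library by library, from uninjected 1 to injected 2, the Nkg7 set held 49, 150, 182 and 61 barcodes and the Cd7 set, which lacks Nkg7, held 25, 169, 104 and 52. This split was chosen after the values had been seen, and it is a description.

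**Figure D1:**
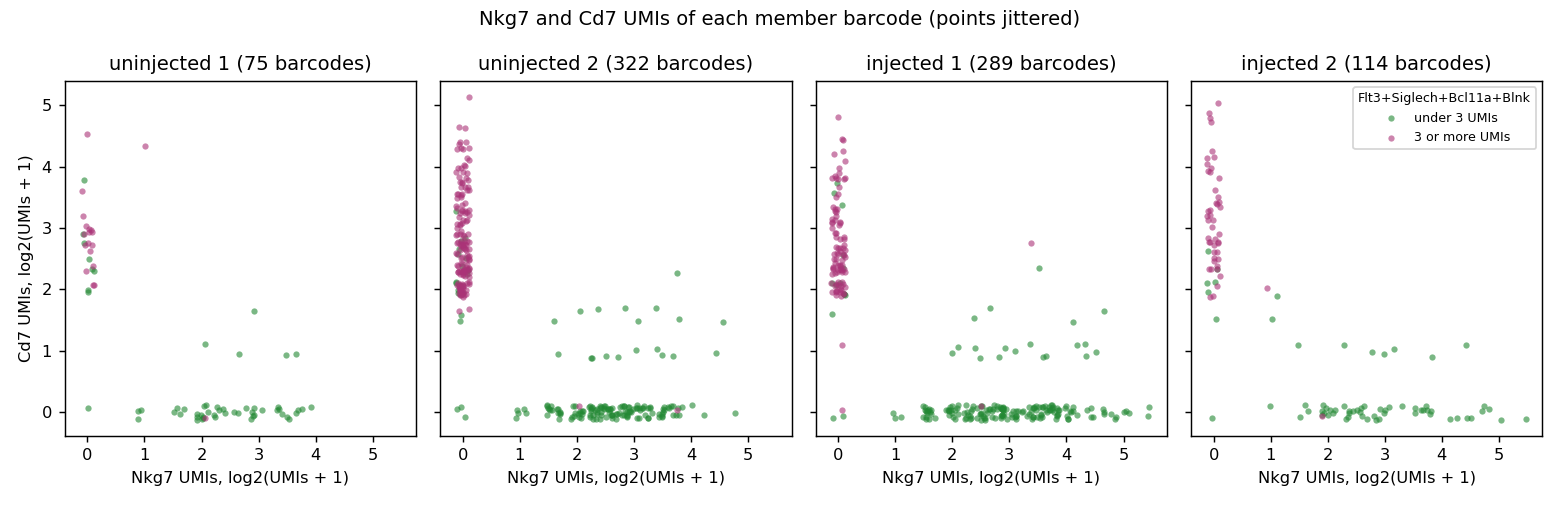
Nkg7 UMIs (x axis) against Cd7 UMIs (y axis) of each member, both as log2(UMIs + 1) with jitter, 1 panel per library. Purple points hold 3 or more UMIs of Flt3, Siglech, Bcl11a and Blnk combined, genes chosen with results of these data known. They make up 8 of the 442 barcodes with Nkg7 and 305 of the 350 with Cd7 but no Nkg7. The arms along the axes differ in colour in every library.

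The Nkg7 set held the defining genes of NK cells in part. Levels are given as CPM, the UMIs of a gene when all UMIs of a set in a library are scaled to 1000000, in the order uninjected 1, uninjected 2, injected 1 and injected 2. Gzmk, a granzyme, stood at 1169, 1873, 3136 and 2352 CPM in the Nkg7 set and was found in 85.7% to 96.2% of its barcodes per library. Gzmm, a second granzyme, stood at 907, 1094, 1020 and 1171 CPM. Prf1, which encodes perforin, stood at 138, 191, 432 and 285 CPM. None of the 350 barcodes of the Cd7 set held a UMI of Gzmk, Prf1, Gzma or Ccl5, and 1 held Gzmm.

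Shares in a cell type that should lack these genes give the background of free RNA. Keratinocyte barcodes, which should lack them, held a Gzmk UMI in 0.264% to 1.08% per library and a Ccl5 UMI in 0.162% to 0.739%, at median depths of 14646.5 to 19407 UMIs, above the 3317 to 6339.5 UMIs of the Nkg7 set. The estimated upper share of free RNA in the members' Gzmk level was at most 0.144% in any library.

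Receptors of NK cells were uneven in the Nkg7 set. Klrb1b, an inhibitory lectin-like receptor, stood at 824, 1419, 1380 and 1266 CPM, though keratinocyte barcodes also held it in 14.2% to 28.5%. Klrk1, which encodes the activating receptor NKG2D, stood at 227, 202, 246 and 251 CPM and was as high in parts of the Cd7 set, at 373, 176, 307 and 63.4 CPM. Ncr1, the NKp46 receptor that marks NK cells and some innate lymphoid cells, was low at 19.7, 56.5, 50.4 and 45.1 CPM and was found in 105 barcodes of the Nkg7 set and in none of the Cd7 set. Klrd1, the CD94 partner of the NKG2 receptors, stood at 49.3, 48.0, 80.9 and 47.4 CPM in the Nkg7 set. Of the 40 matched genes in the list of NK receptors, 38 had a UMI in the Nkg7 set and 27 in the Cd7 set.

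Among transcription factors, Tbx21, which encodes T-bet, stood at 306, 202, 170 and 235 CPM in the Nkg7 set and was found in 4 barcodes of the Cd7 set. Eomes, the T-box factor of mature NK cells, was close to absent, with 23 UMIs in all members, all of them in the Nkg7 set. Rora, needed for several innate lymphoid lineages, stood at 1228, 2355, 1724 and 1465 CPM in the Nkg7 set, against 0, 36.4, 42.9 and 99.9 CPM in the Cd7 set. Kit, a stem cell factor receptor found on some innate lymphoid cells and on mast cells, was present in both sets, at 296, 286, 155 and 313 CPM with Nkg7 and at 299, 311, 194 and 186 CPM with Cd7.

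Signature cytokines were scarce. Ifng, which encodes interferon gamma, had 24 UMIs in all 800 members, and Gzmb, a main granzyme of activated NK cells, had 2. Genes named as granzyme B-like, which may share reads with Gzmb and with each other, were present, and they were chosen for mention after their values were seen. Gzmbl2 stood at 158, 94.9, 175 and 80.6 CPM in the Nkg7 set and at 8.29, 93.7, 57.6 and 13.4 CPM in the Cd7 set. Gzmbl3 stood at 24.7, 8.53, 4.97 and 33.2 CPM in the Nkg7 set and at 141, 123, 146 and 109 CPM in the Cd7 set. The chemokine Ccl5 stood at 4379, 1717, 1778 and 1480 CPM in the Nkg7 set, with uninjected 1 above the other 3 libraries. Xcl1, a chemokine that attracts cross-presenting dendritic cells, stood at 686, 411, 241 and 507 CPM, and the groups overlapped. Of the group 2 genes, Il13 had 0 UMIs, which allows up to 3, Il5 had 4 and Il1rl1, the interleukin 33 receptor, had 27. Of the group 3 genes, Il22, Il23r and Il17a had 4, 3 and 11 UMIs. Among the members, no group 2 or group 3 set could be told from these genes at this depth.

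Genes of T cells were in part present in the Nkg7 set although Cd3 genes were absent by the rule. Icos, a costimulatory receptor of activated T cells and some innate lymphoid cells, stood at 577, 926, 376 and 650 CPM in the Nkg7 set, against 1421, 1115, 1532 and 2432 CPM in the 346 barcodes with at least 2 UMIs of Cd3e and Cd3d, which passed the same exclusions and are called T barcodes by these genes. Cd28, a costimulatory receptor of T cells, stood at 197, 224, 222 and 138 CPM in the Nkg7 set and at 543, 403, 544 and 549 CPM in those T barcodes. Cd5 and Foxp3 had 6 and 4 UMIs in all members, while Il17a, at 11 UMIs in the members, stood at 794, 273, 692 and 1544 CPM in the T barcodes. A UMI of other T cell genes, a list that includes Cd5, Cd6 and Cd28, was held by 286 of the 800 members. By library these were 18, 113, 120 and 35 members. The constant genes of the T cell receptor were not used here, since no listed symbol matched them.

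The data went against the label for the Cd7 set. Its barcodes held genes that NK cells are not known for. Of these, Blnk, Bcl11a, Flt3 and Siglech were chosen for mention with results of these data known. Blnk, an adaptor of B cell receptor signalling, stood at 1468, 3082, 3008 and 2155 CPM, and Bcl11a, a transcription factor of B and dendritic lineages, at 381, 692, 831 and 743 CPM. Flt3, a growth factor receptor of dendritic and lymphoid precursors, stood at 174, 330, 341 and 252 CPM. Siglech, a lectin known from plasmacytoid dendritic cells and some macrophages, stood at 99.5, 194, 145 and 152 CPM. Irf8, a transcription factor of dendritic cells and monocytes, stood at 829, 1702, 1360 and 1006 CPM, against 360, 418, 490 and 650 CPM in the Nkg7 set.

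These genes were not equally specific. Siglech was found in 36.0% to 67.3% of the Cd7 set per library and in 0.0528% to 0.137% of the deeper keratinocyte barcodes, and Flt3 in 40.0% to 65.4% against 0.919% to 1.82%. Blnk and Bcl11a were also found in 26.1% to 34.9% and 42.7% to 51.2% of keratinocyte barcodes, so their presence alone does not set the Cd7 set apart. Genes of antigen presentation by class II molecules, chosen for mention after their values were seen, were high in the Cd7 set as well: Cd74 stood at 4030, 4843, 2922 and 3981 CPM there, against 24.7, 379, 88.0 and 906 CPM in the Nkg7 set. Of the list of 19 dendritic cell markers, 18 had a UMI in each set, and their summed level was 12488 to 16158 CPM in the Cd7 set and 109 to 3457 CPM in the Nkg7 set. Of the 11 matched B and plasma cell markers, 10 had a UMI in the Cd7 set and 7 in the Nkg7 set. The list summed to 1866, 3776, 3688 and 2475 CPM in the Cd7 set and to 153, 26.7, 69.6 and 97.2 CPM in the Nkg7 set. Ighm, the heavy chain of immunoglobulin M and 1 gene of this list, stood at 249, 496, 576 and 246 CPM in the Cd7 set.

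**Figure D2:**
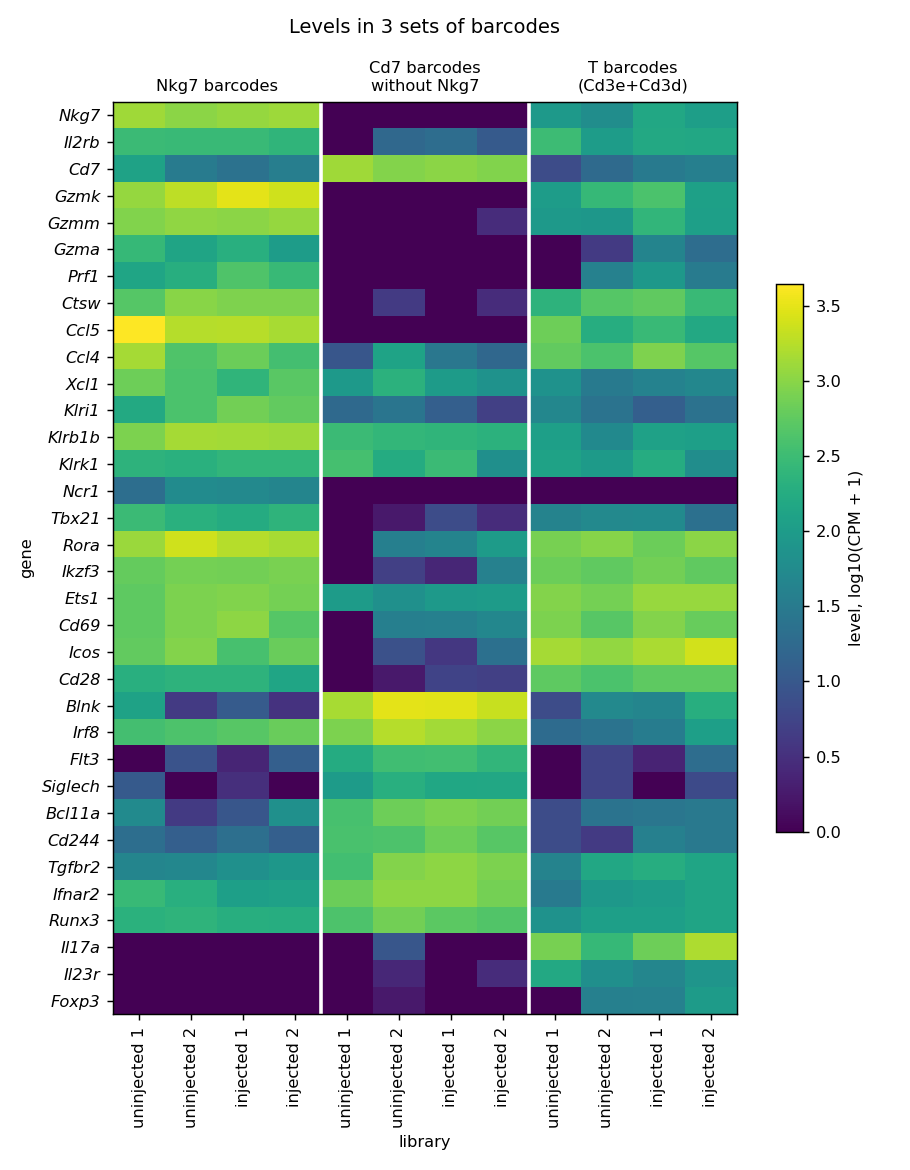
Levels as log10(CPM + 1), shown by colour, of 34 genes (rows) in the 4 libraries (columns) of the Nkg7 barcodes, the Cd7 barcodes without Nkg7 and the T barcodes by Cd3e and Cd3d. Gzmk, Prf1 and Ccl5 are at 0 in all 4 libraries of the Cd7 set, Blnk and Flt3 are highest there, and Il17a is seen mainly in T barcodes.

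The thresholds of the rule cut through these sets. The 127 members with exactly 3 gate UMIs held Nkg7 in 37.0% and Cd7 in 59.8%, and the 190 barcodes left out with 2 gate UMIs held them in 28.9% and 66.8%. Gzmk stood at 600 CPM just inside the threshold and at 259 CPM just outside it, and Blnk at 1604 and 1483 CPM. A further 86 barcodes with at least 3 gate UMIs were left out for a single Cd3 UMI. They held Cd7 in 88.4% and Nkg7 in 15.1%, and their Blnk level was 3564 CPM, near that of the Cd7 set. Of the 493 barcodes called T barcodes with all 3 Cd3 genes, 118 held 3 or more UMIs of Flt3, Siglech, Bcl11a and Blnk combined.

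Members took 0.959% of kept barcodes in uninjected 1 (95% exact binomial interval 0.755% to 1.20%), 3.58% in uninjected 2 (3.21% to 3.99%), 2.93% in injected 1 (2.61% to 3.29%) and 1.86% in injected 2 (1.53% to 2.23%). The intervals cover counting error only. The lowest and the highest share were both uninjected, and the group means of 2.27% ± 1.85 and 2.39% ± 0.762 (SD, n = 2) differed by less than the spread between libraries (exact two-sided permutation test, p = 1; this design cannot go below 0.33). After thinning each barcode to 1000 UMIs, 27, 67, 68 and 29 members were left, and the group means were 0.545% ± 0.283 and 0.581% ± 0.154 (SD, n = 2, exact permutation p = 1). Among members and T barcodes together, members took 57.7%, 67.5%, 58.6% and 59.1% (exact permutation p = 1).

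The split of the members also moved from library to library. The Nkg7 set took 0.627%, 1.67%, 1.85% and 0.993% of kept barcodes, and the Cd7 set 0.320%, 1.88%, 1.06% and 0.846%. The Nkg7 set made up 65.3%, 46.6%, 63.0% and 53.5% of the members, and 62.3%, 41.9%, 67.1% and 44.5% of their UMIs, so sums over all members weigh the sets unequally between libraries. Thinned to 1000 UMIs, a Nkg7 UMI was left in 49.3%, 31.7%, 39.8% and 36.0% of the members. For both sets the shares of kept barcodes overlapped between the treatment groups. As a share of Nkg7 barcodes and T barcodes by Cd3e and Cd3d together, the Nkg7 set took 61.25% and 58.4% without and 57.1% and 46.2% with injection, which did not overlap, and the difference of −8.18 points had the smallest p that this design allows (exact permutation p = 0.33). With T barcodes by all 3 Cd3 genes, and without the 2 barcodes rich in Cpa3 that are described below, these shares were 47.1%, 49.2%, 47.0% and 43.2%, a difference of −3.06 points.

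**Figure D3:**
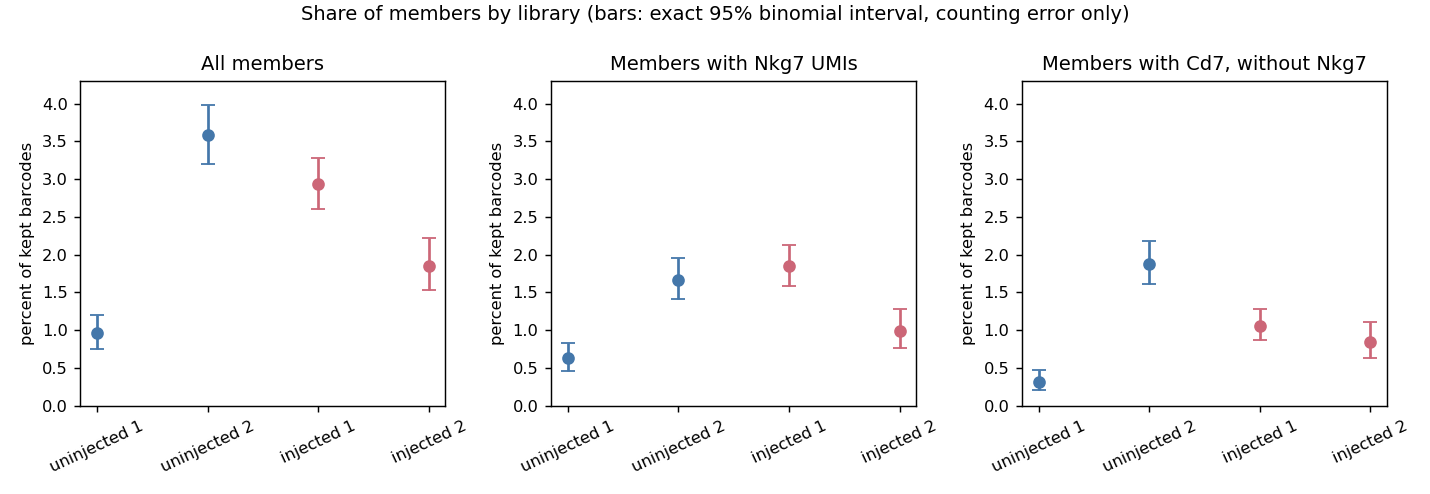
Percent of kept barcodes (y axis) that were members, members with Nkg7, and members with Cd7 but no Nkg7, in each library (x axis), with exact 95% binomial intervals that cover counting error only. In the first panel uninjected 1 at 0.959% and uninjected 2 at 3.58% lie on both sides of the injected libraries.

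The effect of injection on gene expression within the members was tested on UMIs summed per library, a contrast that the rule did not use. No gene of 9296 tested passed an adjusted p of 0.05 in edgeR's quasi-likelihood test (0% called), 450 had an unadjusted p under 0.05, and the smallest adjusted p was 0.0534. DESeq2 called 18 genes (0.194%), 7 higher and 11 lower in injected wounds. Among the 18 were Mcpt1l1, Cma1, Cpa3, Igfbp5, Mctp1, Map4k5 and Ca5b, described below with their edgeR values, so the methods differed on these genes. Both injected libraries lay above both uninjected ones for 28.3% of the genes tested and below them for 11.2%. In the 493 T barcodes no gene of 7862 passed in edgeR (0% called, 296 at an unadjusted p under 0.05).

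The gene of smallest p was Mcpt1l1, a mast cell protease gene, with 0 UMIs in the uninjected members and 761 in the injected ones, at least 214-fold higher against a floor of 3 UMIs over the uninjected group (edgeR adjusted p = 0.0534). Cma1, which encodes the mast cell protease chymase, had 1 and 252 UMIs, a ratio of 212 (counting interval 37.8 to 8418, edgeR adjusted p = 0.0534). Nearly all of these UMIs came from 1 barcode in each injected library: 542 and 215 of the 761 Mcpt1l1 UMIs, and 185 and 67 of the 252 Cma1 UMIs. Those barcodes held 69 and 32 UMIs of Cpa3, the mast cell carboxypeptidase, 5 and 3 of Nkg7 and none of Il2rb, Cd7 or Gzmk. Without them, edgeR called 0 genes, the smallest adjusted p was 0.474, and 450 genes had an unadjusted p under 0.05. Igfbp5, a binding protein of insulin-like growth factors, was concentrated too, with 80.0% of its 90 injected UMIs in 1 barcode per library.

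Other genes near the top of that list were spread over many barcodes. Mctp1, a membrane protein with calcium-binding domains, stood at 572 and 535 CPM in the Cd7 set of the uninjected libraries and at 129 and 71.1 CPM in the injected ones, with UMIs in 114 barcodes of the Cd7 set and 11 of the Nkg7 set. Over all members its log2 difference was −2.75 ± 0.29 (SE), which did not pass (edgeR adjusted p = 0.155), and within the Cd7 set alone it was −2.57 (edgeR adjusted p = 0.449). Homer1, a synaptic scaffold protein, stood at 456 and 382 CPM in the Cd7 set of the uninjected and 171 and 109 CPM of the injected libraries. Over all members its log2 difference was −1.51 ± 0.26 (SE, edgeR adjusted p = 0.715). In the Nkg7 set it was 0.71 ± 0.56 (SE, edgeR adjusted p = 0.837), and −0.18 there without uninjected 2. Map4k5, a kinase, had a log2 difference of −2.38 ± 0.35 (SE, edgeR adjusted p = 0.613). Over all members DESeq2 called Mctp1 and Map4k5 but not Homer1.

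Ca5b, a mitochondrial carbonic anhydrase, had UMIs in 0% and 1.33% of the Nkg7 set in the uninjected and in 47.8% and 23.0% in the injected libraries. It had 2 UMIs in all uninjected members and 207 in all injected ones, a ratio of 87.2 (counting interval 23.8 to 725, edgeR adjusted p = 0.709). DESeq2 called it over all members. The same order was seen outside the members. In the T barcodes by Cd3e and Cd3d the gene stood at 11.9 and 3.10 CPM without and at 48.4 and 99.9 CPM with injection. In keratinocyte barcodes it was found in 11.7% and 15.0% without and in 27.4% and 28.4% with injection.

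**Figure D4:**
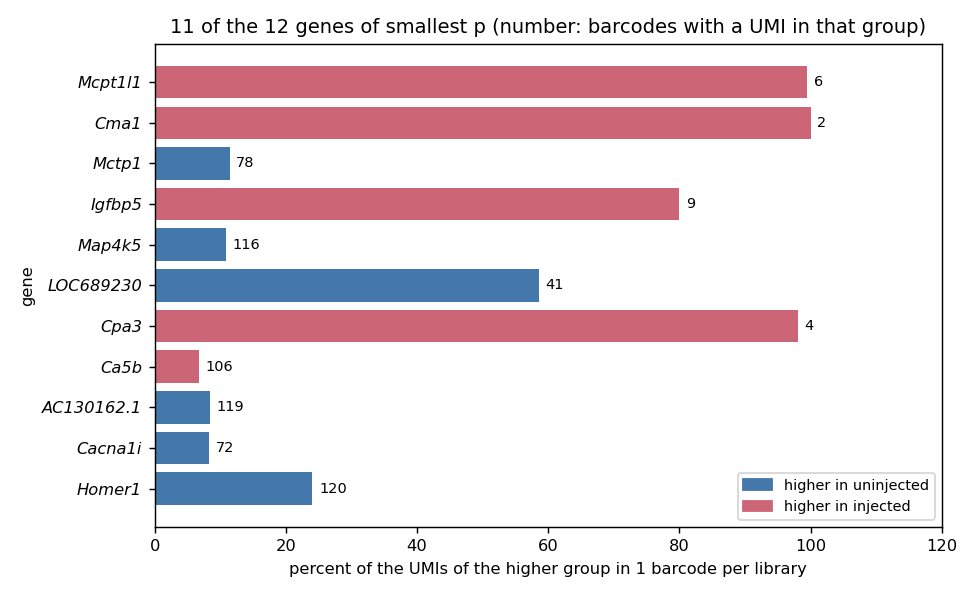
For 11 of the 12 genes of smallest p (rows), the percent of the UMIs of the group with the higher level that lay in the single highest barcode of each library (x axis), with the number of barcodes of that group that held the gene printed beside the bar. Mcpt1l1, Cma1 and Cpa3 rest on 1 barcode per injected library, while Ca5b was spread over 106 barcodes.

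Among cytotoxic genes in the members, 0 of 16 tested passed in edgeR, 10 were higher and 6 lower, and the median log2 difference was 0.12 beside 0.02 over all genes tested. In the Nkg7 set, edgeR called 2 of 7226 genes (0.0277% called), Mcpt1l1 and Cma1, both from the barcodes described above, and none when those barcodes were left out (smallest adjusted p 0.196, 432 at an unadjusted p under 0.05). Both injected libraries lay above both uninjected ones for 26.1% of the genes tested in that set, and below them for 13%. Prf1 was among the former, with a log2 difference of 0.96 ± 0.31 (SE, edgeR unadjusted p = 0.0163, adjusted p = 0.763). Gzmk, at 1169 and 1873 CPM without and 3136 and 2352 CPM with injection, differed by 0.70 ± 0.39 (SE, edgeR adjusted p = 0.78). Serpinb9, an inhibitor that shields cells from granzyme B, stood at 24.7 and 39.5 CPM without and at 71.7 and 71.1 CPM with injection. Gzma, a granzyme, overlapped between the groups at 276 and 131 against 196 and 102 CPM.

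Of 27 NK receptor genes tested in the Nkg7 set, none passed in edgeR, 20 were higher and 7 lower, and for 11 both injected libraries lay above both uninjected ones, beside the 26.1% over all genes. Klri1, a lectin-like receptor of rat NK cells, stood at 163 and 407 CPM without and at 733 and 593 CPM with injection, a log2 difference of 1.07 ± 0.39 (SE, edgeR adjusted p = 0.77). Tyrobp, the adaptor of activating receptors, was high in uninjected 1 alone, at 1208 CPM against 437, 476 and 443 CPM, and Ccl5 showed the same single high library. Neither difference over the groups passed.

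The chains of the type I interferon receptor showed no overlap between the groups in the Nkg7 set. Ifnar1 stood at 168 and 171 CPM without and at 101 and 87.7 CPM with injection, a log2 difference of −0.99 ± 0.28 (SE, edgeR unadjusted p = 0.00878, adjusted p = 0.705). Ifnar2, the other chain, stood at 286 and 197 CPM against 114 and 121 CPM, a log2 difference of −1.21 ± 0.35 (SE, edgeR adjusted p = 0.705). The groups did not overlap for either gene, and neither passed. Of the 24 cytokine receptor genes tested in the Nkg7 set, both injected libraries lay below both uninjected ones for 6 and above them for 6, beside 13% and 26.1% of all genes. Itga1, the integrin chain of tissue-resident lymphocytes, stood at 168 and 161 CPM without and at 80.9 and 97.2 CPM with injection.

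**Figure D5:**
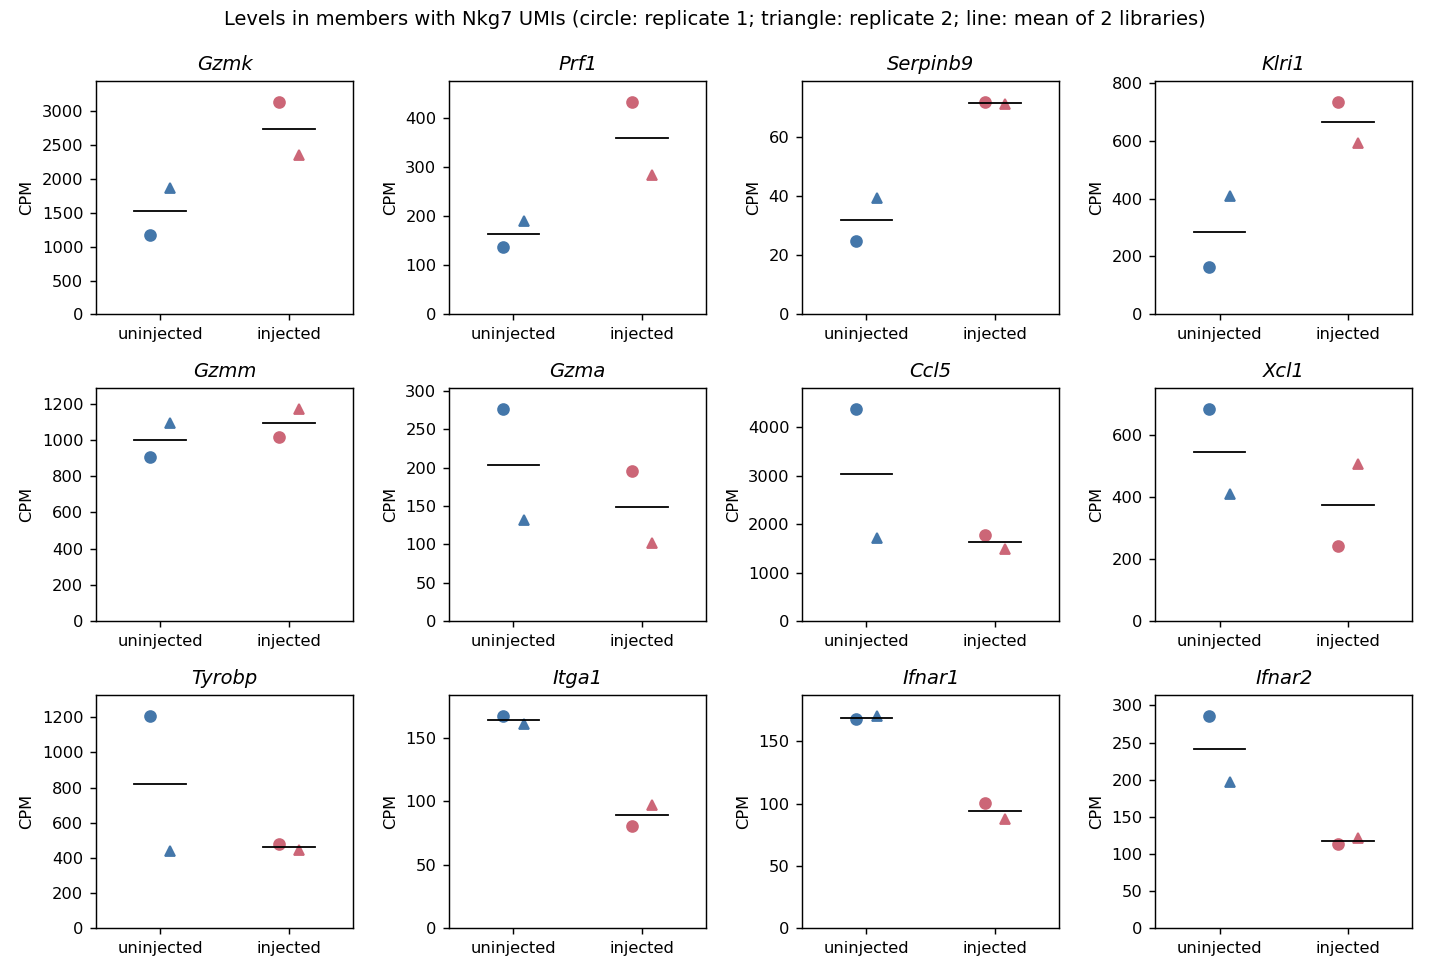
Level in CPM (y axis, from 0) of 12 genes in the Nkg7 set of each library by group, with a line at the mean of the 2 libraries. The groups do not overlap for Gzmk, Prf1, Serpinb9, Klri1, Itga1, Ifnar1 and Ifnar2, and none of these passed the test. Gzma and Xcl1 overlap, and Ccl5 and Tyrobp are high in uninjected 1. The genes shown were picked for display. Over all genes tested in the Nkg7 set, both injected libraries lay above both uninjected ones for 26.1% and below them for 13%.

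Genes of cell division, a list taken with earlier results of these data known, had log2 differences above 0 for 21 of 24 tested in the Nkg7 set, and none passed in edgeR. For 10 of them both injected libraries lay above both uninjected ones, beside the 26.1% over all genes, and the median log2 difference was 0.46, beside 0.01. Mki67, the proliferation antigen, chosen for mention after its values were seen, stood at 29.6 and 82.1 CPM without and at 169 and 175 CPM with injection, a log2 difference of 1.35 ± 0.37 (SE, edgeR adjusted p = 0.684). Top2a, a topoisomerase of dividing cells, stood at 14.8 and 44.8 CPM against 98.7 and 71.1 CPM, a log2 difference of 1.21 ± 0.43 (SE, edgeR adjusted p = 0.77). Uninjected 1, the shallowest library of members, was the lowest for both genes, and the part of depth in these differences was not tested. The Nkg7 set of uninjected 1 summed to 202764 UMIs, so levels this low there, that of Serpinb9 included, rest on few UMIs. In the Cd7 set Mki67 stood at 0, 1.55, 4.43 and 15.4 CPM.

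Among the lists of lymphocyte function over all members, none of the genes passed in edgeR: transcription factors were higher for 13 and lower for 14 of 27 genes tested, cytokine receptors for 15 and 12 of 27, trafficking receptors for 11 and 16 of 27, group 2 genes for 3 and 6 of 9, and group 3 genes for 3 and 5 of 8. Secreted cytokines and chemokines were higher for 2 and lower for 9 of 11 genes, with a median log2 difference of −0.93, beside 0.02 over all genes tested. Both injected libraries lay below both uninjected ones for 2 of the 11 and above them for 1, beside 11.2% and 28.3% of all genes. The whole list summed to 5324, 2707, 3367 and 2789 CPM in the members, highest in uninjected 1. Xcl1 had a log2 difference of −0.93 ± 0.39 (SE, edgeR adjusted p = 0.89). Gata3, a transcription factor of group 2 cells, stood at 18.4 and 16.1 CPM without and at 34.8 and 69.7 CPM with injection in all members, a log2 difference of 1.47 ± 0.49 (SE, edgeR adjusted p = 0.89).

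Markers of other cells moved with single libraries. Apoe, a lipoprotein gene of macrophages, chosen after its values were seen, stood at 740, 319, 1545 and 10946 CPM in the Nkg7 set and at 2853, 1266, 2097 and 9223 CPM in the Cd7 set. The list of 13 keratinocyte markers summed to 4900, 2364, 2510 and 7327 CPM in the members, and all 13 had a UMI in each set. Apoe was highest in injected 2 in both sets, and the keratinocyte sum was highest in injected 2 and uninjected 1, whose estimates of free RNA, made from other genes that include keratinocyte genes, were also the highest. In injected 2, 1 barcode of the Cd7 set held 122534 of the set's 520744 UMIs. In the Nkg7 set of that library, 1 barcode held 53938 of 421712 UMIs. That Nkg7 barcode held 1 UMI of Nkg7, 3 of Cd7 and 28 of Flt3, Siglech, Bcl11a and Blnk combined. The levels given for both sets in injected 2 include these barcodes. The part of these barcodes and levels in the results was not tested.

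The difference of the injection effect between members and T barcodes passed for 0 of 9208 genes in edgeR (0% called, 340 at an unadjusted p under 0.05) and for 1 gene, Mmp12, in DESeq2. Restricting the members to the Nkg7 set and the T barcodes to those with Cd3e and Cd3d, a choice made after the values were seen, gave 15 calls of 7809 (0.192%). All 15 were relatively higher with injection in the Nkg7 set. They included Epcam, Tp63, Krt79, Cldn4 and Lcn2, which are genes of epithelial cells, beside the keratinocyte levels given above, whose part in these calls was not tested.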

How the data were processed

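The deposited files hold raw UMI counts per gene and barcode for 4 libraries, as whole numbers with empty droplets included. Cell Ranger 7.2.0 wrote the counts per the file headers; version 5.0.1 stands in the submitters' processing notes. No genome build is given in the sources used here. The rule was applied to all 23999 genes, with Col1a2 not used because no symbol matched. Doublets were not removed in the values reported. An alternative removed the barcodes of highest Scrublet score, 0.8% for each 1000 barcodes (scanpy 1.11.5), in place of Scrublet's own calls, and took out 73 members. UMIs of the members were summed per library, since cells are not replicates. They were tested in R 4.3.3 with edgeR 4.0.16 (quasi-likelihood, TMM, filterByExpr) over all 4 libraries with no covariate, and with Benjamini-Hochberg adjustment over all genes tested. DESeq2 1.42.0 was an alternative. Levels are CPM without TMM scaling, and standard errors follow from the F statistic. The difference from T barcodes was an interaction with a term for each library. The scripts were tested on simulated data.

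Members, gene lists and tests were chosen with earlier results of these data known. Genes were named by 3 parts of a rule. These were the 12 of smallest p where fewer than 10 passed, the gate and defining genes, and genes of each list of lymphocyte function. From each such list the 8 of highest level and the 4 of smallest p were taken. Flt3, Siglech, Bcl11a, Blnk and Icos were added outside this rule, with results of these data known. T barcodes held at least 2 Cd3 UMIs. The upper estimate of free RNA compared 19 genes of other classes with barcodes of 10 to 100 UMIs. Shares carry 95% Clopper-Pearson intervals, and a count of 0 allows up to 3 UMIs. These, and the counting intervals and bounds of ratios, cover counting error only and take each UMI as independent. Results for a few genes are not reported here.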

Additional observations from a re-analysis of the deposited data

How the results depend on the processing

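The count of genes called in the members was 0 under a UMI minimum of 2000, a gate minimum of 5 UMIs, and without doublets, shared barcodes, other T cell genes or ribosomal and mitochondrial genes. It was 18 with DESeq2, 2 without TMM scaling, which moves the median log2 difference of all genes from 0.02 to 0.18, 173 without a filter on low counts (54 higher, 119 lower) and 0 to 1 when each library was left out in turn. With a replicate block the count was 2, Mcpt1l1 and Cma1. The labels do not say that a replicate number marks a shared animal or day, so the numbers are not treated as pairs. Deviations of same-numbered libraries from their group means had a correlation of −0.133 over 9296 genes. With 2 libraries per group both pairs must give the same value, so it cannot decide whether the libraries are paired. Alternatives chosen after seeing the data gave 2 calls in the Nkg7 set and 0 in the Cd7 set or without the barcodes of over 10 Cpa3 UMIs. Leaving out each library in the Nkg7 set gave 30 and 257 calls when uninjected 1 or 2 was dropped, and 23 and 18 when injected 1 or 2 was. The 257 arose where uninjected 1 was the only uninjected library and is assumed to vary like the others, and 47 of them were ribosomal protein genes lower with injection. The count of genes whose effect differed from T barcodes was 54 without the filter, 1 with DESeq2, 15 in the Nkg7 set against T barcodes by Cd3e and Cd3d, 6 to 90 when each library was left out (90 without injected 1), and 0 under the other settings.

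The difference in the share of kept barcodes, 0.124 points, became −0.00187 points at a minimum of 2000 UMIs and −0.0261 points without other T cell genes, and ran from −1.19 to 1.44 points when each library was left out. The difference in the share of members among members and T barcodes together was −3.75 points. It ran from −8.66 to 1.15 points when each library was left out, turning at 1.15 without uninjected 2. Without members that held other T cell genes, with the T barcodes unchanged, it was −6.50 points (exact permutation p = 0.33, the smallest possible here). At a gate minimum of 5 UMIs it was −1.16 points. Of 33 genes with log2 differences, 5 changed direction in 11 of 670 values and 48 values passed the threshold under an alternative. Homer1 was 0.71 in the Nkg7 set, 0.72 there without the Cpa3 barcodes, and between −0.18 (no uninjected 2) and 1.36 (no uninjected 1) there, with 0.70 and 0.59 when an injected library was dropped. Over all members, leaving out each library gave −1.46 to 0.64 for Gzma (0.64 without uninjected 1, 0.05 without injected 2) and −1.86 to 0.26 for Ccl5 (0.26 without uninjected 1). Gzma was 0.19 in the Nkg7 set without uninjected 1. In the Nkg7 set, Tyrobp was 0.036 without uninjected 1 and AC130162.1 was 0.069 without injected 2. The cause of these shifts was not tested. Depth limits what can be said of genes with few UMIs, such as the cytokines, and uninjected 1 held 75 members.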
